A study of Mus musculus with 4 samples.

Results

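Cytochrome P450 (Cyp) genes were examined in brown adipose tissue (BAT) of transgenic (Tg) mice in which the eIF2α kinase PERK can be switched on by a drug. The members were all mouse genes on the array whose symbol had the form Cyp, number, letter, number, without pseudogenes and Cyp51. By this rule 88 genes with 109 probes were found among 20145 named genes and 55681 probes. The gene family was chosen by its array values, namely the signal above background and the difference between AP and vehicle, with both already known, so the differences between AP and vehicle below are descriptions and not independent evidence.

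All 4 mice were male maP2::Fv2E-PERK Tg mice of the C57/BL6N strain at 8 weeks of age. They carried Fv2E-PERK, a fusion of the PERK kinase domain to a domain that the ligand AP20187 (AP) dimerizes, under the mouse aP2 (Fabp4) promoter, which is active in white and brown adipocytes and can also be active in macrophages. A group of 2 mice received AP in 1 intraperitoneal injection, and a group of 2 received the vehicle, a mixture of ethanol, PEG-400 and Tween-20 in water. BAT was collected 12 h later. The dose of AP was 1 ng/g in the sample labels, and the study's text gives a different dose. The vehicle mice carried the transgene too, and no mice without it were among these arrays, so an effect of AP alone cannot be told apart from an effect of the activated kinase.

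P450 enzymes are heme proteins of the endoplasmic reticulum or the mitochondria that insert an oxygen atom into lipophilic molecules. They take electrons from cytochrome P450 oxidoreductase or, in mitochondria, from ferredoxin. The CYP1 to CYP3 families mainly oxidize foreign compounds, and several of them also convert arachidonic acid into signaling lipids. CYP4 enzymes hydroxylate the ends of fatty acids, and the other families make or break down steroids, bile acids, vitamin D and retinoic acid. They are best known from liver, where they are abundant, and adipose tissue holds a smaller set.

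RNA of each mouse was labeled with 1 dye and hybridized to its own array. The signal of each probe was scaled to the 75th percentile of its array and is given here as log2, so that 0 is the 75th percentile and 1 unit is a 2-fold step. The probes differ in binding, so levels are compared between mice and never between genes. From 46.4 to 49.0% of spots were well above background and 0 were saturated, and the number of mice limits the precision. Across the arrays, 0 of 24975 probes had an adjusted p under 0.05 (limma, Benjamini-Hochberg), 1515 (6.07%) had an unadjusted limma p under 0.05, and the smallest adjusted p was 0.80. Trib3, a target of this kinase pathway, was at 2.78 and 2.33 in the vehicle mice and at 6.26 and 8.01 in the AP mice, so both AP arrays carried the mark of the treatment.

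The largest differences between the groups were in Cyp2e1, Cyp2b10 and Cyp2b9, and the bases before the start of these genes are shown because they are the members that differed by at least 2-fold. The sequences are from RefSeq on GRCm38.p6 and hold the 250 bases before the annotated start, 5′ to 3′ on the strand of the gene. The sequence before Cyp2e1 lies at chr7:140763569-140763818, + strand. Its capitals mark matches to a TATA box (TATAAA) or, on the opposite strand, to a CCAAT box (CCAAT, read here as ATTGG). The sequence before Cyp2b10 lies at chr7:25897408-25897657 and that before Cyp2b9 at chr7:26173159-26173408, both on the + strand. In this pair the capitals mark the 5 runs of at least 8 bases that are the same in both when they are aligned.
Cyp2e1: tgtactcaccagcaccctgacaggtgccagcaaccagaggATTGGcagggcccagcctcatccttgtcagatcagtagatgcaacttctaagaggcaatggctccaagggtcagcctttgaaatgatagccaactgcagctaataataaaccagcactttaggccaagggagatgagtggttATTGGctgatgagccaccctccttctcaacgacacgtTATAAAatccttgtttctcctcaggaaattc
Cyp2b10: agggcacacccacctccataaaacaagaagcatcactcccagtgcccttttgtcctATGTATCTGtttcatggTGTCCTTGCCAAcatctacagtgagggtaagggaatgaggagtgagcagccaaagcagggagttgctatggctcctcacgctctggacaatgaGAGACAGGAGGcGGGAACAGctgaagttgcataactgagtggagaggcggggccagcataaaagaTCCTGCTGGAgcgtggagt
Cyp2b9: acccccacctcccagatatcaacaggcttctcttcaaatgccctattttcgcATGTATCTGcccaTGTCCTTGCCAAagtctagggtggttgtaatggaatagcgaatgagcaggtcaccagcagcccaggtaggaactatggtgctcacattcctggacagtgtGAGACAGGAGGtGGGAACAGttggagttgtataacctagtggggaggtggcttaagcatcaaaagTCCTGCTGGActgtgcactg
The Cyp2b pair was 71.0% identical over the aligned window, against 49.3% for Cyp2b10 with Cyp2e1 and 51.6% for Cyp2b9 with Cyp2e1. Their longest shared run was TGTCCTTGCCAA, of 12 bases.

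Motifs were searched on both strands of the same 250 bases, for which 68 of the 88 genes and 27025 genes in all had a sequence. TATAAA was found before 26 of the 68 P450 genes (38.2%) and before 14.3% of all genes. CCAAT was found before 29 of them (42.6%), with 37.5% of all genes. The composite element TGATGNAA that C/EBP and ATF proteins can share was found before 2 of the 68 (2.94%) and 3.91% of all genes. The D-box TTATGTAA was found before 0 of the 68 and 0.977% of all genes, and the core TNGCGTG of the element that the aryl hydrocarbon receptor binds before 1 of the 68 (1.47%) and 4.76% of all genes. Matches of different motifs may overlap, and a match describes the sequence alone.

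Detection was taken as a signal well above background in every mouse of the vehicle group, the AP group or both, and 37 of the 88 genes, with 40 probes, met it. This share of 42.0% compares with 63.5% of all named genes. CYP2 gave 19 of its 43 genes, CYP4 gave 8 of 17, and CYP3, the main drug-metabolizing family of liver, gave 0 of 7. Within CYP2, none of the 3 Cyp2a genes, 2 of 5 Cyp2b, 3 of 13 Cyp2c, 4 of 8 Cyp2d and 4 of 6 Cyp2j genes were measured. Among the members with a defined metabolic task, 2 of 6 steroid hormone enzymes, 4 of 6 enzymes of sterols and bile acids, 1 of 3 of vitamin D and 1 of 3 of retinoic acid were measured. A gene counted as measured if any of its probes met the rule. Cyp21a1, Cyp2c37, Cyp2c38, Cyp2j8 and Cyp2j13, counted here, each also had a probe that was not well above background in any mouse.

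**Figure D1:**
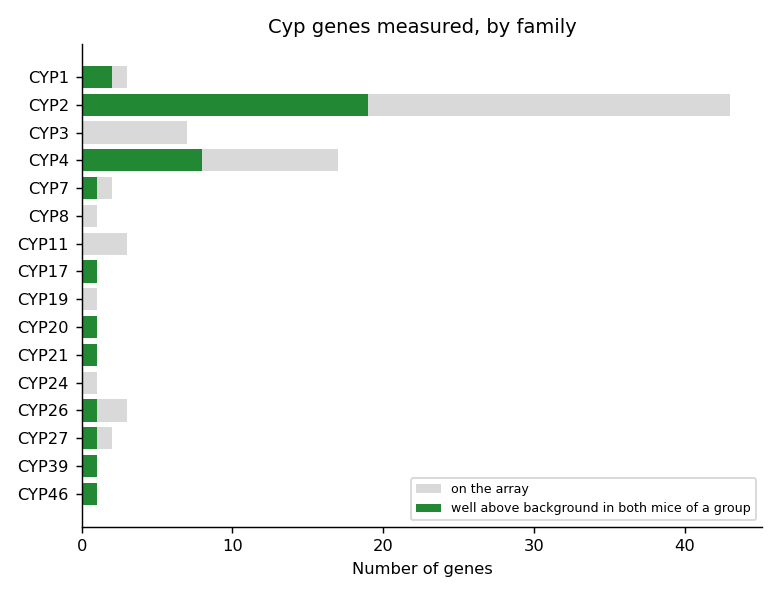
Number of Cyp genes (x axis) in each CYP family (y axis), with grey bars for the genes on the array and green bars for those detected. CYP2 held 19 of the 37 measured genes and CYP3 held 0.

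Of the 37, 34 were well above background in all 4 mice. The others were Cyp1a1 and Cyp2c70, each not well above background in vehicle mouse 2, and Cyp7b1, not so in AP mouse 2. Just outside the rule were Cyp2c67, well above background in vehicle mouse 2 alone at -3.04, and Cyp4a14, so in AP mouse 1 alone at -3.03. The other 49 genes that were left out were not well above background in any mouse.

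Cyp2e1, which oxidizes ethanol, acetone and other small molecules, was at 4.08 in vehicle mouse 1 and 1.28 in vehicle mouse 2, and at 5.0 and 5.58 in the AP mice. Both AP mice were above both vehicle mice, and vehicle mouse 2 stood far below the other 3. The mean was 2.60 higher with AP on the log2 scale, with a standard error of 0.97, or 6.08-fold. The vehicle mice differed by more than that, since vehicle mouse 2 was 2.81 below vehicle mouse 1 on the log2 scale. Set against vehicle mouse 1 alone, the AP mean was 1.20 higher. A second Cyp2e1 probe gave 2.18 and -0.65 in the vehicle mice and 2.95 and 3.49 in the AP mice, in the same order.

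Cyp2b10 and Cyp2b9 belong to a cluster of neighboring genes, and in liver Cyp2b10 is the classic phenobarbital-inducible P450, driven by the nuclear receptor CAR. Cyp2b10 was at 4.38 and 3.31 in the vehicle mice and at 5.62 and 5.25 in the AP mice, a difference of 1.59 with a standard error of 0.42. Cyp2b9 was at -1.74 and -3.25 in the vehicle mice and at -0.11 and -0.78 in the AP mice, a difference of 2.05 with a standard error of 0.58. In linear terms the AP means were 3.01-fold and 4.15-fold those of vehicle. As with Cyp2e1, the groups did not overlap for either gene and vehicle mouse 2 was the lowest of the 4. The 2 genes stayed above 2-fold against vehicle mouse 1 alone, by 1.06 for Cyp2b10 and 1.30 for Cyp2b9 on the log2 scale. The Cyp2b9 difference was 0.79, short of 2-fold, with normexp, which fits a model to the background-subtracted signal and adds an offset of 50. Probes of the Cyp2b genes, like those of Cyp2c, Cyp2d and Cyp4a, may also bind near-identical relatives, so values of single genes in these subfamilies are uncertain.

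These 3 genes were the members with at least a 2-fold higher mean, and 2.74% of all measured genes had one. None of the 37 was at least 2-fold lower, against 1.95% of all. The same 3 had an unadjusted limma p under 0.05, against 6.04% of all genes, and 0 of the 37 had an adjusted p under 0.05, against 0.0% of all probes. Over the 37 genes the differences ran from -0.44 to 2.60 with a median of 0.02, and the median of all measured genes was 0.01. The mean was higher with AP for 20 and lower for 17, and 29 differed by less than 0.5 on the log2 scale. Over all measured genes, 51.4% had a higher mean. The median of each array raised all genes alike (median of all genes 0.10), and the authors' log2 values lowered nearly all alike (median of all genes -0.15), so genes near 0 changed sign by construction. The P450 genes were then split 25 and 12, with 61.6% of all genes higher, and 16 and 21, with 33.4% of all genes higher. With normexp the split was 27 and 10, with 51.8% of all genes higher, and 7 members changed sign, Cyp2t4 and Cyp7b1 among them.

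**Figure D2:**
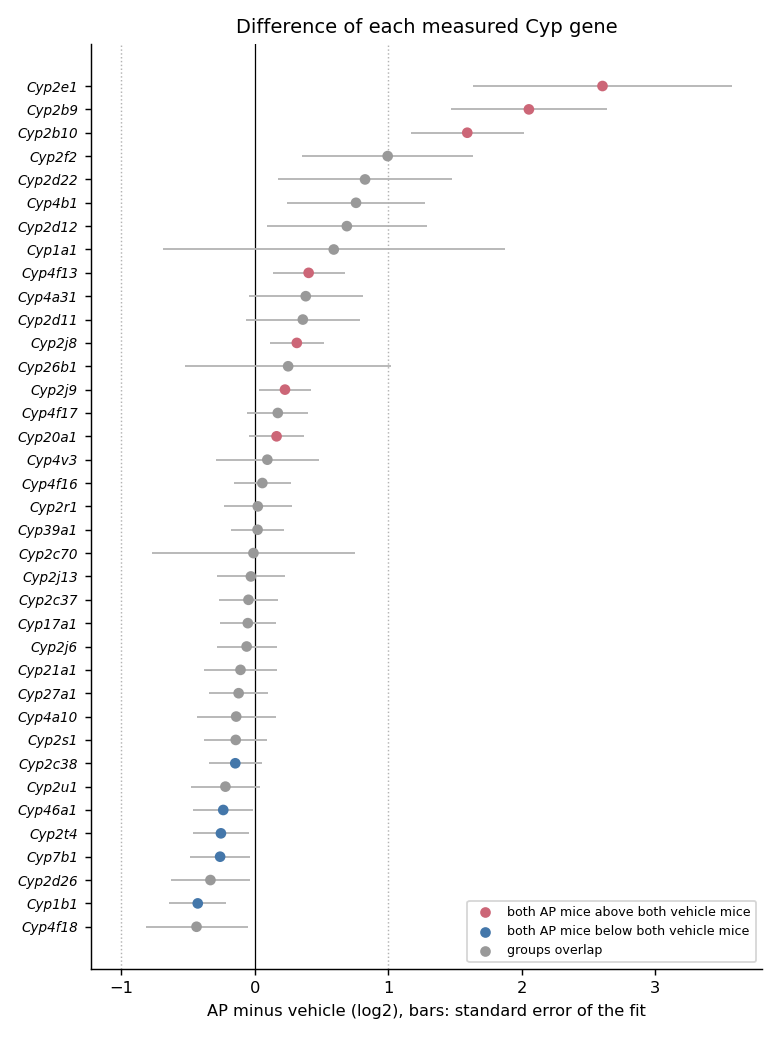
Difference of the mean log2 signal, AP minus vehicle (x axis), for the 37 measured Cyp genes (y axis, ordered by the difference), with bars for 1 standard error of the limma fit on 2 mice per group and dotted lines at 2-fold. Cyp2e1, Cyp2b9 and Cyp2b10 lie beyond 2-fold, and the median of the 37 is 0.02.

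Both AP mice were above both vehicle mice for 7 of the 37 genes, and this was so for 20.1% of all measured genes. Both were below for 5, against 17.3% of all, and the groups overlapped for the other 25. Besides the 3 genes above, the higher set held Cyp2j8 and Cyp2j9, relatives of the enzymes that epoxidize arachidonic acid, with differences of 0.32 and 0.23. It also held Cyp4f13, of the ω-hydroxylases, with 0.40, and Cyp20a1, a P450 of unknown substrate, with 0.16. The lower set was Cyp1b1, Cyp2c38, Cyp2t4, Cyp46a1 and Cyp7b1. None of these 5 differed by more than 0.43 on the log2 scale. The counts above and below were 8 and 2 with normexp and 11 and 2 with the median of each array. In the authors' log2 values they were 5 and 12. The shares of all genes were not counted under these scalings, of which the last 2 move all or nearly all genes alike. These counts thus cannot be read as particular to the P450 genes.

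Cyp1b1, which hydroxylates estradiol and other aromatic molecules and is a target of the aryl hydrocarbon receptor, was at -0.13 and -0.23 in the vehicle mice and at -0.50 and -0.72 in the AP mice. The AP mice were both lower, and the mice of each group were close, with a difference of -0.43 and a standard error of 0.21. Cyp1a1, another target of that receptor, was at 0.00 and -3.81 in the vehicle mice and at -1.42 and -1.21 in the AP mice. Its value in vehicle mouse 2 was not well above background, and the AP mice lay between the vehicle mice. The difference of 0.59 had a standard error of 1.28, and against vehicle mouse 1 alone the AP mean was lower, by -1.31.

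**Figure D3:**
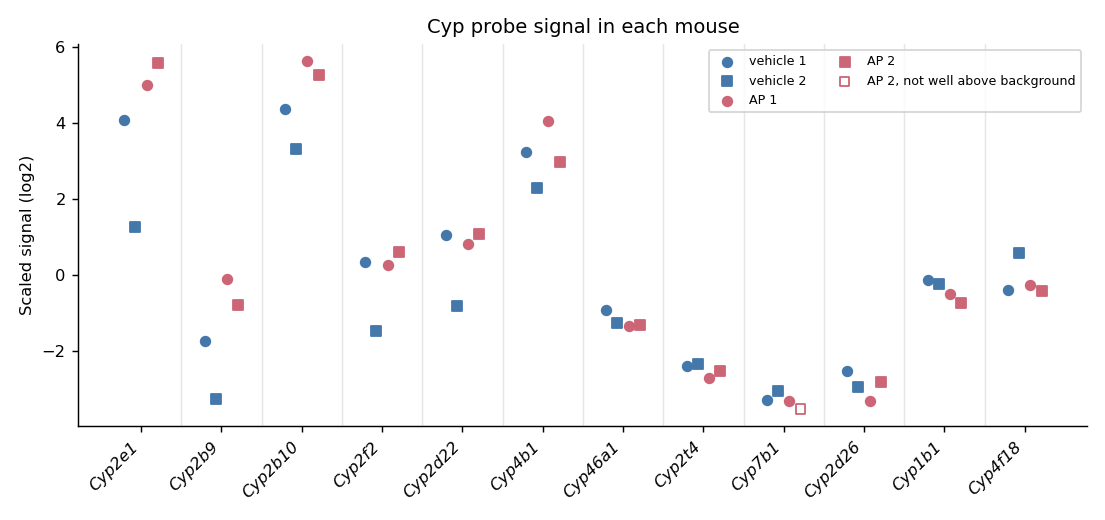
Scaled log2 signal (y axis) of the 12 Cyp genes named by rule (x axis, ordered by the difference between the groups) in each of the 2 vehicle and 2 AP mice, with an open symbol where the probe was not well above background. Vehicle mouse 2 is the lowest of the 4 for Cyp2e1, Cyp2b9, Cyp2b10, Cyp2f2, Cyp2d22 and Cyp4b1.

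The next 3 differences in size came from genes whose groups overlapped. Cyp2f2, known for activating naphthalene in the airway, was at 0.35 and -1.46 in the vehicle mice and at 0.27 and 0.60 in the AP mice. Its difference of 1.00 (standard error 0.64), just short of 2-fold, fell to 0.09 against vehicle mouse 1 alone. Cyp2d22 was at 1.05 and -0.81 in the vehicle mice and at 0.81 and 1.09 in the AP mice, and its difference of 0.83 (standard error 0.65) turned to -0.10 against vehicle mouse 1. For both genes, 3 mice were close and vehicle mouse 2 was low. Cyp4b1, which hydroxylates fatty acids and activates plant toxins, was at 3.23 and 2.28 in the vehicle mice and at 4.06 and 2.97 in the AP mice. Here AP mouse 1 was high and vehicle mouse 2 low, and the difference of 0.76 had a standard error of 0.52 and was 0.21 without AP mouse 1.

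The remaining Cyp2d genes, near-identical members of 1 cluster, had differences of 0.69 for Cyp2d12, 0.36 for Cyp2d11 and -0.33 for Cyp2d26. Cyp2d12 was at 1.37 and -0.31 in the vehicle mice and at 1.09 and 1.35 in the AP mice, so its pattern was that of Cyp2d22. Cyp2d26 was at -2.51 and -2.93 in the vehicle mice and at -3.31 and -2.79 in the AP mice, with the groups overlapping. Cyp2t4, which lies in the gene cluster of Cyp2b10, was at -2.38 and -2.33 in the vehicle mice and at -2.70 and -2.52 in the AP mice. Its difference of -0.25 had a standard error of 0.21. The Cyp2c genes that were measured, Cyp2c37, Cyp2c38 and Cyp2c70, had differences between -0.15 and -0.01.

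Among the 8 measured CYP4 genes, 6 had a higher mean with AP and 2 a lower one (4 and 4 in the authors' log2 values), and the median difference was 0.13. Cyp4f18, which inactivates leukotriene B4 in neutrophils, had the lowest difference of all 37 genes, -0.44 with a standard error of 0.38. It was at -0.39 and 0.58 in the vehicle mice and at -0.26 and -0.43 in the AP mice, so vehicle mouse 2 was high and the other 3 were close. Against vehicle mouse 1 alone the difference was 0.05. The peroxisome proliferator targets Cyp4a10 and Cyp4a31 had differences of -0.14 and 0.38, with overlapping groups.

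The enzymes of sterols were low in spread. Cyp7b1, which 7α-hydroxylates oxysterols, was at -3.27 and -3.03 in the vehicle mice and at -3.30 and -3.52 in the AP mice, the last not well above background. Cyp46a1, the cholesterol 24-hydroxylase, was at -0.92 and -1.25 in the vehicle mice and at -1.33 and -1.32 in the AP mice. The differences were -0.26 and -0.24, with standard errors of 0.22 and 0.23, and the AP mice were below the vehicle mice for both genes. Cyp27a1, the sterol 27-hydroxylase, was spotted 10 times on each array and was at 0.13 and -0.15 in the vehicle mice and at -0.16 and -0.11 in the AP mice. The SD between its spots was 0.06 to 0.14 on an array, and the difference of -0.12 lay within the spread of the vehicle mice. Cyp39a1, which acts on 24-hydroxycholesterol, differed by 0.02.

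Cyp17a1, the 17α-hydroxylase of steroid synthesis, was at 3.51 and 3.39 in the vehicle mice and at 3.32 and 3.49 in the AP mice. Its level was thus alike in all 4 mice, while Cyp11a1, which starts steroid synthesis from cholesterol, was not well above background in any. Of 4 adrenal cortex markers, Hsd3b1 was not well above background in any mouse and Star was so in 1, and Mc2r and Nr5a1 differed by 0.08 and -0.09, signs that changed with the scaling. Cyp21a1, the 21-hydroxylase, differed by -0.11, and its second probe was not well above background in any mouse. Cyp2r1, the vitamin D 25-hydroxylase, differed by 0.02, and its second probe by -0.12. Cyp26b1, which clears retinoic acid, was at -1.11 and 0.58 in the vehicle mice and at 0.72 and -0.75 in the AP mice, and so varied within both groups.

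The vehicle mice were also compared with each other. The median absolute log2 difference between the vehicle mice was 0.34 over the 37 genes and 0.32 over all genes. Between the AP mice it was 0.23 and 0.27. The vehicle mice were at least 2-fold apart for 10 of the 37 genes, and for 10.2% of all measured genes. Vehicle mouse 2 was the lower one by at least 2-fold for 9 of the 37, and for 3.82% of all genes. The 9 were Cyp1a1, Cyp2b9, Cyp2b10, Cyp2c70, Cyp2d11, Cyp2d12, Cyp2d22, Cyp2e1 and Cyp2f2, and Cyp26b1 was the 1 gene that was higher in vehicle mouse 2, against 6.33% of all genes. Set against the mean of the other 3 mice, vehicle mouse 2 was at least 2-fold lower for 9 of the 37 and for 2.93% of all genes. The AP mice were at least 2-fold apart for Cyp26b1 and Cyp4b1, 2 of the 37, and for 6.92% of all genes. Vehicle mouse 2 was the lowest of the 4 mice for 18 of the 37 genes (35.9% of all genes) and the highest for 5 (23.8% of all genes). The median difference over the 37 was 0.16 against vehicle mouse 2 alone and -0.10 against vehicle mouse 1 alone, with 0.06 and -0.02 over all genes.

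**Figure D4:**
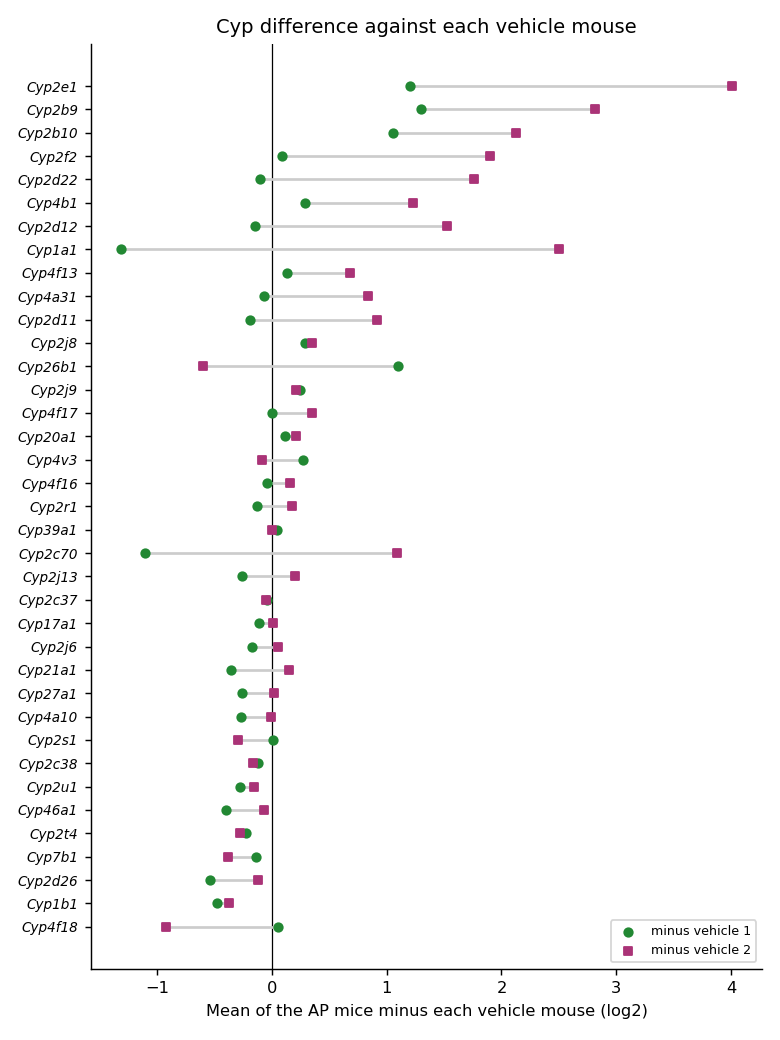
Mean log2 signal of the 2 AP mice minus that of vehicle mouse 1 (circles) or vehicle mouse 2 (squares) on the x axis, for the 37 Cyp genes (y axis). Cyp2e1 ranges from 1.20 to 4.01, and Cyp2d22 from -0.10 to 1.76.

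Markers of other cells differed between the vehicle mice too. The summed linear signal of 8 skeletal muscle genes was 31.9 and 578 in the vehicle mice and 381 and 200 in the AP mice, and all 8 were highest in vehicle mouse 2. Myh4, a fast muscle myosin, was at 3.84 and 7.83 in the vehicle mice and at 7.58 and 6.63 in the AP mice. For these markers vehicle mouse 1 stood far below the other 3, and vehicle mouse 2 was the highest. Of 10 leukocyte genes 6 were measured, and all 6 were highest in vehicle mouse 2, with sums of 28.4 and 94.4 in the vehicle mice and 34.5 and 32.0 in the AP mice. The leukocyte sum was highest in vehicle mouse 2 and close in the other mice. Vehicle mouse 2 also had the highest muscle and stroma sums and the lowest brown adipocyte sum. Cd74, of antigen presentation, and Cd79b, of the B cell receptor, had the largest differences of the leukocyte list, -0.72 and -0.66. Cd79b was at -3.11 and -0.53 in the vehicle mice and at -2.68 and -2.28 in the AP mice. Cd79b and the T cell gene Cd3e were well above background in all 4 mice, and Cd79a and Cd8a in none. The part of these markers in the low P450 values was not tested, and in whole tissue fewer cells of a type and less RNA per cell cannot be told apart.

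**Figure D5:**
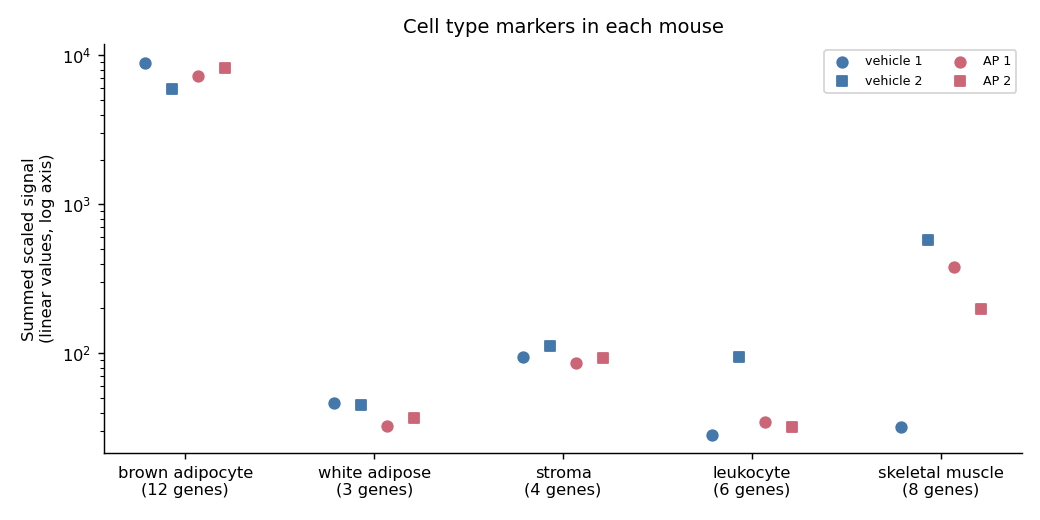
Summed linear signal (y axis, log scale) of the measured marker genes of 5 cell or tissue types (x axis) in each of the 2 vehicle and 2 AP mice. Vehicle mouse 2 is highest for muscle (578) and leukocyte (94.4) markers, and vehicle mouse 1 is lowest for both (31.9 and 28.4).

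All 12 brown adipocyte markers were measured in all 4 mice, as the labeled tissue calls for, with sums of 8949 and 5946 in the vehicle mice and 7320 and 8242 in the AP mice. Elovl3, a fatty acid elongase of brown fat, was at 6.08 and -1.07 in the vehicle mice and at 3.52 and 5.76 in the AP mice, lowest in vehicle mouse 2. Its difference was 2.13 with a standard error of 2.49. Of the 12 markers, 7 were lowest in vehicle mouse 2 (35.9% of all genes) and 2 were highest there (23.8% of all genes). Of 8 white adipose markers 3 were measured, and the Hox genes of that list were not well above background. Leptin (Lep) was at 0.04 and 1.45 in the vehicle mice and at -0.63 and -0.63 in the AP mice. The difference was -1.38 with a standard error of 0.51, and -0.67 against vehicle mouse 1 alone. The study's text reports no change of leptin expression in these mice. Of 6 hepatocyte markers Alb, Apoa1, Ttr and Fgb were not well above background in any mouse, and Apoc3 and Serpina1c differed by -0.69 and -0.06, the second with a sign that changed with the scaling. Of the 4 stroma markers Col1a1 had the largest difference, -0.44, and both AP mice were lower.

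The 9 genes listed as electron donors or partners of the P450 enzymes, among them the oxidoreductase Por, were all measured. The AP mice were above the vehicle mice for 0 of the 9 and below them for 1, with 20.1% and 17.3% of all genes, and the median difference was -0.11. Cyb5b, a cytochrome b5 of the outer mitochondrial membrane, was at 5.51 and 4.67 in the vehicle mice and at 4.52 and 4.92 in the AP mice. Ferredoxin 1 (Fdx1), the donor in mitochondria, was at 7.0 and 6.40 in the vehicle mice and at 6.21 and 6.59 in the AP mice. Their differences of -0.37 and -0.30 were the largest of this list, with overlapping groups.

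All 12 genes of heme synthesis and breakdown were measured, with 1 above and 1 below (20.1% and 17.3% of all genes). Heme oxygenase 1 (Hmox1) was at 1.25 and 2.37 in the vehicle mice and at 1.92 and 3.03 in the AP mice. Cpox, an enzyme late in heme synthesis, was at -0.08 and -0.39 in the vehicle mice and at 0.37 and 0.10 in the AP mice. The differences were 0.66 and 0.47, and the mice of the groups were apart for Cpox alone of these 2.

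Of 15 transcription factors known to regulate P450 genes, 12 were measured, with 5 above (20.1% of all genes), 2 below (17.3% of all genes) and a median difference of 0.27. Hlf and Dbp are related factors that bind the D-box. Hlf was at 0.50 and 1.5 in the vehicle mice and at 1.86 and 1.66 in the AP mice, and Dbp was at 2.62 and 3.41 in the vehicle mice and at 2.33 and 2.31 in the AP mice. They differed by 0.76 and -0.70, with opposite signs. The xenobiotic receptor PXR (Nr1i2) and the repressor Ahrr were not well above background in any mouse. CAR (Nr1i3), named here after its values were seen, was at -1.93 and -2.52 in the vehicle mice and at -3.46 and -1.78 in the AP mice, so the groups overlapped.

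P450 enzymes that carry other symbols were Ptgis, the prostacyclin synthase, and Tbxas1, the thromboxane synthase. Ptgis was at 0.58 and 0.55 in the vehicle mice and at -0.46 and -0.64 in the AP mice. Both AP mice were lower and the mice of each group were close, with a difference of -1.12 and a standard error of 0.21, and vehicle mouse 2 did not stand apart. Tbxas1 differed by -0.70 with overlapping groups. The epoxide hydrolases Ephx1 and Ephx2, which open the epoxides that P450 enzymes form, differed by -0.22 and 0.63. Ephx2 was at 6.28 and 5.16 in the vehicle mice and at 6.75 and 5.94 in the AP mice. None of the genes of these lists had an adjusted p under 0.05 (limma).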

How the data were processed

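BAT RNA of 2 vehicle-treated and 2 AP-treated Tg mice was hybridized to 1-color Agilent 8x60K arrays. The authors extracted the spots with Agilent Feature Extraction 10.7.1.1 and deposited background-subtracted intensity values, not normalized between arrays, and a table of log2 values with unstated scaling, which was used as an alternative. Spots marked as outliers were left out, repeat spots were averaged, and each array's 75th percentile was subtracted on the log2 scale. Probes well above background in every mouse of either group were fitted with limma 3.58.1 in R 4.3.3 (lmFit and eBayes, Benjamini-Hochberg over all 24975 probes). The arrays name probes by accession, and 26582 probes were named through RefSeq (GRCm38.p6), used for names and promoters only because the array design gives mm9. The probe with the highest mean signal stood for a gene. All 4 arrays shared 1 slide and 1 scan, and position on the slide and treatment cannot be told apart. The labels give each array its own replicate number without litters, so each array was taken as its own mouse. The limma p-values and standard errors rest on the spread between these mice, drawn toward the spread of all fitted probes. The test was tried on simulated data.

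The members and lists were chosen with earlier results of these data known. Named were members at least 2-fold different, those that did not overlap with a difference of at least 0.5, the 6 largest rises and 6 largest falls, and per list the genes at least 2-fold different or else the 2 largest. The marker lists were brown adipocyte, white adipose, skeletal muscle, leukocyte, hepatocyte, adrenal cortex and stroma. The gene lists were electron donors and partners, heme genes, regulators, relatives under other symbols and epoxide hydrolases. Alternatives were normexp (offset 50, on the median spot signal), quantile and median scaling, no filter, a variance trend, detection on all 4 arrays, a replicate block, the authors' log2 values, each mouse left out, the methods' t-test and the mean of a gene's probes. A crossed replicate block was chosen after seeing the data.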

Additional observations from a re-analysis of the deposited data

How the results depend on the processing

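With all 4 mice kept, no P450 gene had an adjusted p under 0.05 (limma or the methods' t-test) under any alternative. Before adjustment, 3 or 4 of them had a p under 0.05, and 5 without a filter. Among all probes, 1226 (replicate block, of 24975) to 1861 (authors' log2 values, of 24969) did, and 2613 of 55681 without a filter. Cyp2e1 and Cyp2b10 were at least 2-fold higher under all 15 alternatives, and Cyp2b9 under all but normexp (0.79). The 12 named genes had 143 values under 12 alternatives. Of these, 46 equal the reported value, most because the alternative leaves the gene's own values as they are. Of the other 97, 89 kept their direction within the replicate spread, 4 moved beyond it and 4 reversed. Leaving out 1 of the 2 mice of a group cannot move a difference beyond that spread, so those values could only keep or reverse direction. Cyp2e1, at 2.60, thus counted as kept at 1.20 and at 4.01. Reversed were Cyp2t4 (0.0161) and Cyp7b1 (0.0241) with normexp, and Cyp2d22 and Cyp4f18 without vehicle mouse 2, when their differences ranged over the left-out mice from -0.10 to 1.76 and from -0.92 to 0.0507. With 1 mouse left out, genes at least 2-fold higher ranged from 4 (without vehicle mouse 2) to 9 (without vehicle mouse 1). Those lower ranged from 0 to 2 (Cyp1a1 and Cyp2c70, without vehicle mouse 2). The remaining AP mice were above the remaining vehicle mice for 9 to 19 genes and below them for 7 to 16. Fewer mice separate more easily for any gene. These counts were not made over all genes, so they show nothing particular to the P450 genes. The median difference ranged from -0.10 to 0.16, and that of all genes from -0.02 to 0.06. Without a filter 2 genes were at least 2-fold lower, and of 88 genes 20 were above and 11 below. The genes that this added had not met the detection rule, and the median of all genes moved to 0.07. With the median of each array 11 were above and 2 below. Normexp gave 2 below and the authors' log2 values 12, on a scale that moved the median of all genes to -0.15. The shares of all genes above or below were not counted under these alternatives, so the counts show no trait of the P450 genes. The labels state no pairing of the mice by replicate number. The correlation of same-numbered deviations (r = -0.13) cannot settle it, since renumbering 1 group turns its sign. With a replicate block, 0 probes had an adjusted p under 0.05 (limma), 1226 had an unadjusted one, and 4 P450 genes did. The crossed pairing gave 0, 1566 and 3. Of the methods' t-test, 1478 probes passed before adjustment and 0 after it. The cause of these changes was not tested. Dim probes such as that of Cyp7b1 lay near the detection limit.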
